A study of Mus musculus with 10 samples.

Results

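The genes of the cytosolic ribosomal proteins were followed in 10 RNA sequencing libraries made from skeletal stem and stromal cells of mice. Members were the rows of the table whose symbol is Rpl, Rps, Rplp or Rpsa in the usual numbered form, which gave 77 genes (47 of the large subunit, 30 of the small subunit) of 15078 in all. Every member passed the filter on low values, a mean of at least 10 over the 10 libraries, which left 13644 genes for testing. The name rule leaves out some ribosomal protein genes that carry other names (Rps3a1, Fau, Rack1, Rpl22l1, Rpl7l1, Rpl36al and Rps27rt), and Rps10, which is a known subunit, was not analysed here.

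The cells were CD51+CD200+ in all groups, sorted from the fraction negative for CD45, Ter119 and CD31. This gate is meant to leave out blood, erythroid and endothelial cells, but reads of red cell and neutrophil genes remained, as given below. BM-MSCs (n = 3 libraries: 1, 2+4 and 3) were bone marrow mesenchymal stem cells of untreated wild-type mice, and P-SSCs (n = 3 libraries: 1, 2+5 and 4) were skeletal stem cells from the periosteum, the outer membrane of bone, of untreated wild-type mice. BM-MSC 2+4 and P-SSC 2+5 each pooled the RNA of a pair of mice. Graft BM-MSCs (n = 4 libraries: 1 to 4) came from the marrow of femurs of POSTN-CRE transgenic mice, in which tamoxifen activates Cre in cells that use Postn and turns on the red reporter Tomato. The femurs had been placed under the skin of wild-type recipients, which were given tamoxifen after the operation, and the cells were sorted 5 months later as Tomato+. Postn, which encodes periostin, is used most by periosteal cells but not by them alone, so the Tomato label limits how firmly a cell can be traced to the periosteum. Mice were young adults when experiments began, so graft tissue was also older when its cells were sorted. The graft and steady-state groups thus differ in genotype, tamoxifen treatment, transplantation and age together. The steady-state libraries were also re-analysed from another series, a further difference that goes with the group. The comparison asks whether marrow stromal cells that descend from graft periosteum use the ribosomal protein genes as marrow stromal cells or as periosteal stem cells do.

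The cytosolic ribosome joins amino acids into protein. Its small subunit reads the messenger RNA and its large subunit forms the peptide bond. The proteins of both subunits are needed in near equal numbers, and their genes are among the most heavily transcribed of any cell. Most of their messenger RNAs begin with a run of pyrimidines (C and T in DNA letters), the 5′ terminal oligopyrimidine tract or TOP, through which the kinase mTORC1 controls how well they are translated. Stem cells are known for tight control of protein synthesis.

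RefSeq promoter windows on GRCm38.p6, from 250 bases before to 50 after the annotated start, were found for 57 of the 77 members. A run of at least 8 letters that starts with C and holds only C and T began within 50 bases of an annotated start in 49 of these 57 genes (86.0%). This was so for 31.5% of the 27025 genes with a window. Such a run need not stand at the first letter of the message, so it is not taken as a TOP. The letters CCGGAAG, which E26 transformation-specific (ETS) family factors can bind, stood on either strand in 24 of the 57 (42.1%) against 9.93% of all genes. TATAAA was found in 6 (10.5%) against 15.7%, and CACGTG, the E-box bound by Myc and related factors, in 6 (10.5%) against 8.09%, both on either strand. The searches were made independently, so that matches of different motifs may overlap. The windows of 30 bases around the pyrimidine run are shown for members on which the results turn and for paralogs set against each other, with the run in capitals and each sequence read 5′ to 3′ on the strand of the gene.
Rpl4: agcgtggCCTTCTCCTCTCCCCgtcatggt
Rps7: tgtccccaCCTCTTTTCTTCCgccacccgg
Rpl22: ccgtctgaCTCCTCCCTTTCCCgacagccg
Rpl39: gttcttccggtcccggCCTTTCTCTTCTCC
Rpl39l: acacccactgCCTCTCCCTagctcccaggc
Rps27: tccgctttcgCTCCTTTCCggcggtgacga
Rps27l: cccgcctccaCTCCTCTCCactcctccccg
On GRCm38.p6 they lie at chr9:64173406-64173435 on the plus strand for Rpl4, chr12:28635910-28635939 on the minus strand for Rps7, chr4:152325679-152325708 on the plus strand for Rpl22, chrX:37085173-37085202 on the minus strand for Rpl39, chr16:10170192-10170221 on the plus strand for Rpl39l, chr3:90213631-90213660 on the minus strand for Rps27 and chr9:66946054-66946083 on the plus strand for Rps27l. The run was 15 letters long in Rpl4, 13 in Rps7 and 14 in Rpl22. In Rpl39 it was at least 14 letters long, since it reached the end of the promoter window. The run was 9 letters long in Rpl39l, Rps27 and Rps27l. Counted from the annotated start, the run began at 27 in Rpl4, 23 in Rps7, -39 in Rpl22 and 37 in Rpl39. It began at -26 in Rpl39l, -2 in Rps27 and -22 in Rps27l. A match in letters is a description of the sequence and says nothing of use in these cells.

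Depth ranged from 15415421 to 25223295 reads per library, and the fewest reads of any member in any library were 11 (Rpl24). Fewer genes had any reads in the graft libraries (9308 to 11674) than in BM-MSCs (12677 to 13341) or P-SSCs (12217 to 13068). The part of this in the differences over all genes was not tested. Summed marker genes followed the labels: marrow stroma genes (Cxcl12, Kitl, Lepr, Adipoq) took 40562 to 62506 ppm of the reads in BM-MSCs and graft BM-MSCs and 197 to 421 in P-SSCs. Periosteal stroma genes (Postn, Pi16, Fmod, Cd34) took 11436 to 19640 ppm of the reads in P-SSCs and at most 499 in the other groups. The libraries also fell into 2 sets by how they measured GC-rich genes. The median deviation of genes over 65% GC, less that of genes at 50 to 60% GC, was 1.33 to 2.33 (log2) in the 4 graft libraries and P-SSC 4, and -2.10 to -1.50 in the 3 BM-MSC libraries, P-SSC 1 and P-SSC 2+5. Graft and BM-MSC libraries therefore have no set in common, and for that comparison the set and the group cannot be told apart. For this reason the P-SSC libraries are given one by one for the members on which the results turn.

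Between 1.54% and 2.96% of the reads of a library fell on the 77 members. The share was 2.07%, 2.23%, 1.82% and 1.76% in graft BM-MSC 1 to 4 (mean 1.97% ± 0.220, SD, n = 4). In BM-MSC 1, 2+4 and 3 it was 1.54%, 1.94% and 2.33%, and in P-SSC 1, 2+5 and 4 it was 2.22%, 2.96% and 1.64%. The ranges of all groups overlapped, and the exact 95% binomial interval of the highest share, 2.95% to 2.96%, shows that counting error was far smaller than the spread between libraries of 1 group. P-SSC 2+5 was the highest library for 72 of the 77 members, and graft BM-MSC 4 was the lowest for 35. No share over all genes stands beside these counts, so they describe the members only. P-SSC 4 lay below both other P-SSC libraries for 74 members, with a median difference of -0.91 (log2). Over all genes tested that median was 0.00, with 36.3% below and 37.2% above.

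Large subunit genes drew more reads in sum than small subunit genes in every library, but less so in the graft. The sums run over 47 large and 30 small subunit genes, so the larger sum does not mean more reads per gene. The ratio of large to small subunit reads was 1.38, 1.41, 1.45 and 1.30 in graft BM-MSC 1 to 4. It was 1.50, 1.58 and 1.51 in BM-MSC 1, 2+4 and 3, and 1.55, 1.55 and 1.60 in P-SSC 1, 2+5 and 4. The graft libraries lay below all 6 steady-state libraries, P-SSC 4 of the same GC set included. The ratio is a sum over the members and is given as a description without a test.

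**Figure D1:**
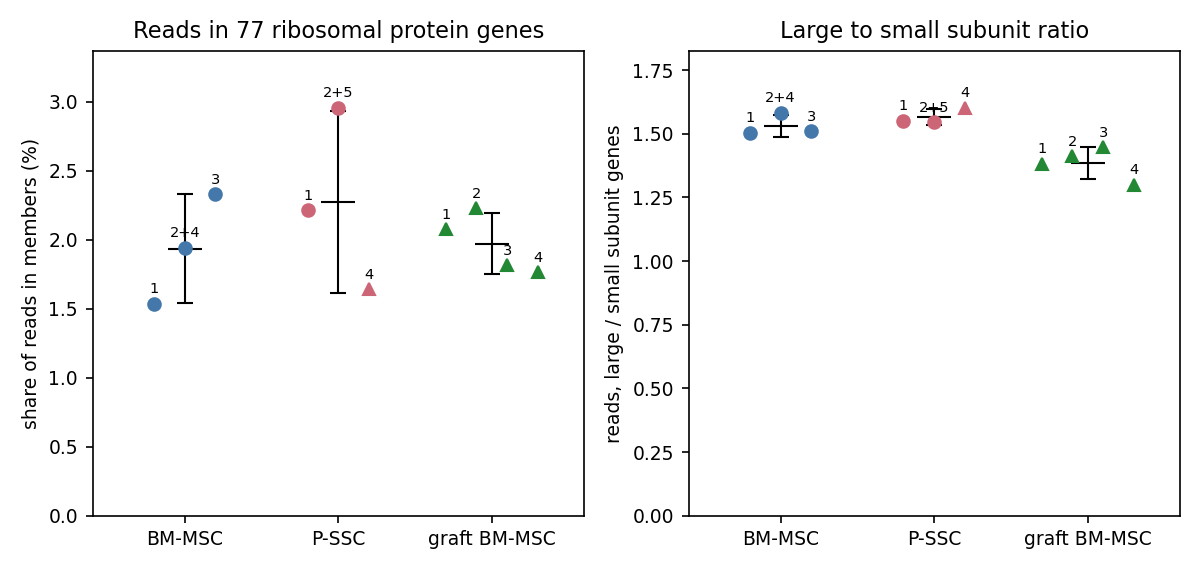
Share of reads in the 77 members in percent (left) and reads in large subunit genes divided by reads in small subunit genes (right), for each library of the 3 groups; numbers are library numbers, triangles mark libraries with high GC-rich genes (the 4 graft libraries and P-SSC 4), circles the others, and the black bar is the mean with its SD. The shares overlap between groups, while the graft ratios (1.30 to 1.45) lie below the steady-state ratios (1.50 to 1.60).

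The members rose and fell together from library to library. In a principal component analysis of their log2 values 1 component held 75.9% of the variance, with P-SSC 2+5 at one end and graft BM-MSC 4 at the other, and the next held 12.2%. Both subunits followed this pattern. A few members departed from it, with Rpl39l and Rpl13a the clearest in the plot of all members by library. In the sequence of their longest coding transcripts, the share of stretches of 75 letters also found in transcripts of other genes had a median of 41.0% over the members (0% in Rpl39l to 92.5% in Rpl5). Mouse ribosomal protein genes are known to have many processed copies. Reads of a member with a high share are uncertain where the counting left out or split reads with several matches.

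**Figure D2:**
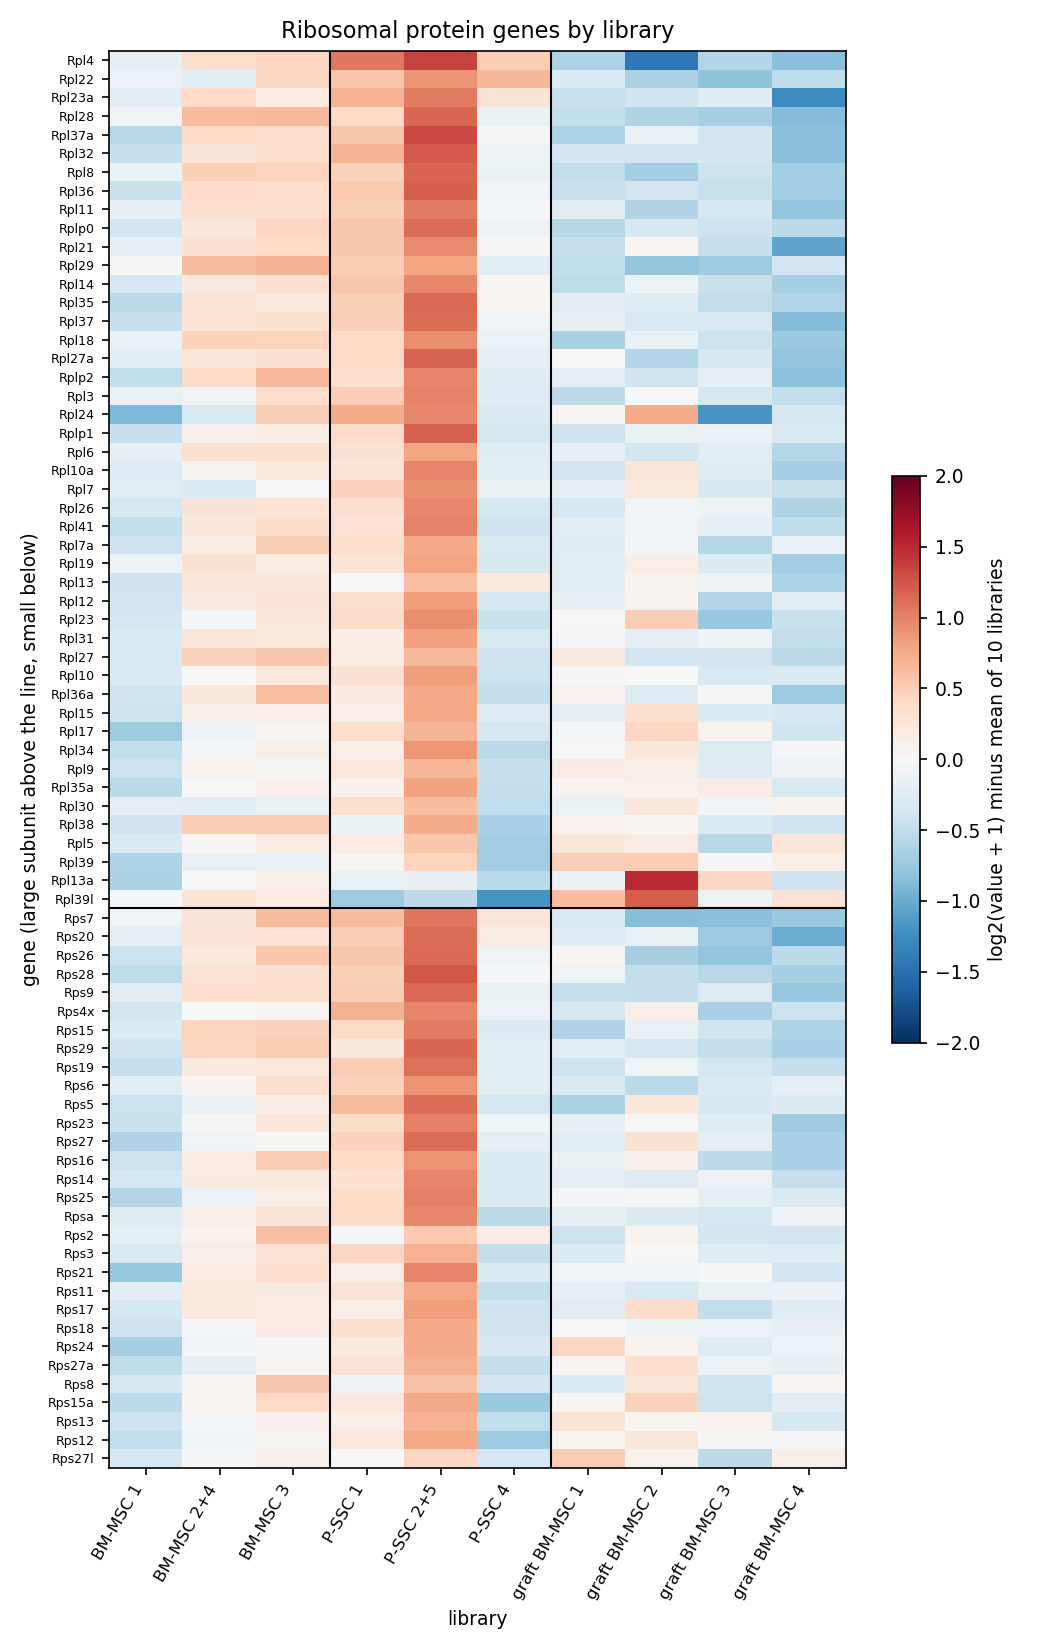
Each row is a member (76 of the 77) and each column a library, and the colour gives log2(value + 1) minus the mean of the 10 libraries (red higher, blue lower); large subunit genes stand above the line and small subunit genes below, each ordered by the difference between graft BM-MSCs and P-SSCs. P-SSC 2+5 is the highest library for 72 of all 77 members, and Rpl39l is low in all P-SSC libraries.

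Per kilobase of transcript, the levels of members, as means over the 10 libraries, spanned from 43.4 normalised reads (Rpl24) to 19932 (Rpl13). Rps14 (16617) was also among the 3 highest. The lowest after Rpl24 were Rpl13a (160) and Rpl22 (404). Rpl24 and Rpl13a share 80.9% and 56.3% of their 75-letter stretches with other genes, whereas Rpl22 shares 1.42%. Rpl13, the highest member, shares 79.6%, so a high share is not particular to low members. The part of such sharing in the levels was not tested. Rpl13 reads ranged from 9837 (graft BM-MSC 4) to 23066 (P-SSC 2+5), Rps14 from 7692 to 20947 in the same libraries, and all groups overlapped for both. Rpl24 was between 11.1 and 52.2 and Rpl13a between 72.1 and 315 in all libraries, with overlap between all groups.

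Graft BM-MSCs against P-SSCs gave most of the differences. Of the 77 members, 16 were lower in the graft and 0 were higher (limma on log2(value + 1), Benjamini-Hochberg adjusted p under 0.05 over all genes tested; 33 at an unadjusted p under 0.05, as were 32.8% of all genes). The background was 18.1% of all genes called, 12.0% lower and 6.08% higher, so that 20.8% of the members stood against 12.0% of all genes for lower calls. By subunit, 13 of 47 large and 3 of 30 small subunit genes were called. The median difference of the members was -0.61 (log2), against -0.47 over all genes tested, and 72 of 77 were negative, a direction that was lost with either GC alternative described below. On the counts themselves the medians were -0.57 against 0.03 over all genes with edgeR and -0.68 against -0.04 with DESeq2, so that the distance between members and all genes depends on the scale. The values of 20 members lay wholly below P-SSCs (background 18.5%) and those of 1, Rpl39l, wholly above (background 8.06%).

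These counts rest on single libraries and on the scale. Without P-SSC 2+5, 3 members were called (12.7% of all genes), without P-SSC 1 4 (11.6% of all genes), and without P-SSC 4 42 (22.0% of all genes). Leaving out graft BM-MSC 1, 3 or 4, or BM-MSC 2+4 or 3, gave 5 to 9 (15.4% to 17.9% of all genes). With the GC set as a covariate or a GC correction 0 members were called, where 7.92% and 18.8% of all genes were. The median of the members became 0.022 and 0.30, against -0.61 and 0.29 over all genes. The covariate reduces this comparison to the graft mean less P-SSC 4. The median within the high GC set is therefore the same estimate, 0.022 over the members against -0.61 over all genes, and rests on P-SSC 4 alone. P-SSC 4 lay above all graft libraries for 22 members, below all for 19 and among them for 36, where it lay above for 30.6% and below for 13.8% of all genes.

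The largest fall was in Rpl4, a large subunit protein with a loop in the wall of the exit tunnel, through which the new protein chain leaves. Its normalised read counts were 4454, 2522, 4524 and 3805 in graft BM-MSC 1 to 4. They were 14155, 17392 and 9596 in P-SSC 1, 2+5 and 4, and 6096, 8676 and 9077 in BM-MSC 1, 2+4 and 3. No graft value reached any value of the other groups, and no P-SSC value fell to a BM-MSC value. Rpl4 was lower in graft BM-MSCs than in P-SSCs by a log2 difference of -1.84 ± 0.28 (SE; limma adjusted p = 0.00115), and the graft lay below P-SSC 4 alone by -1.36. With the GC set as a covariate the adjusted p was 0.0565 for this difference of -1.36, and after the GC correction the difference was -1.01 (adjusted p = 0.0919). Rpl4 lies at chr9:64173375-64178666 on the plus strand of GRCm38.

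Rps7, a small subunit protein that also binds the p53 regulator Mdm2, had 2424, 1663, 1678 and 1779 in the graft, 4565, 6257 and 3539 in P-SSC 1, 2+5 and 4, and 2822, 3582 and 4654 in BM-MSC 1, 2+4 and 3. No graft value reached the other groups (difference from P-SSCs -1.32 ± 0.27, limma adjusted p = 0.00665). Rps7 did not pass with the GC set as a covariate (-0.93, adjusted p = 0.179) or after the GC correction (-0.45, adjusted p = 0.463).

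Rpl22, a large subunit protein that cells can do without in part because of its paralog Rpl22l1, had 635, 492, 439 and 539 in graft BM-MSC 1 to 4. P-SSC 1, 2+5 and 4 had 1115, 1428 and 1213, and BM-MSC 1, 2+4 and 3 had 707, 661 and 1037. The 3 groups did not overlap: P-SSCs were highest and the graft lowest. The difference between graft BM-MSCs and P-SSCs was -1.25 ± 0.30 (limma adjusted p = 0.0164), and it was no longer called without P-SSC 2+5 (-1.16, adjusted p = 0.0599), with the GC covariate (-1.22, adjusted p = 0.120) or after the GC correction (-0.39, adjusted p = 0.565). For Rpl22 P-SSC 4 was not the low P-SSC library, in contrast to the 74 members above. Other calls were Rpl23a, Rpl28, Rps20, Rpl37a, Rpl32, Rpl8, Rpl36, Rps9, Rpl11, Rplp0, Rpl29 and Rpl14, with differences from -1.25 (Rpl23a) to -0.94 (Rpl14), of which Rpl29 (0.00086) and Rps9 (0.0045) were no longer negative after the GC correction.

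**Figure D3:**
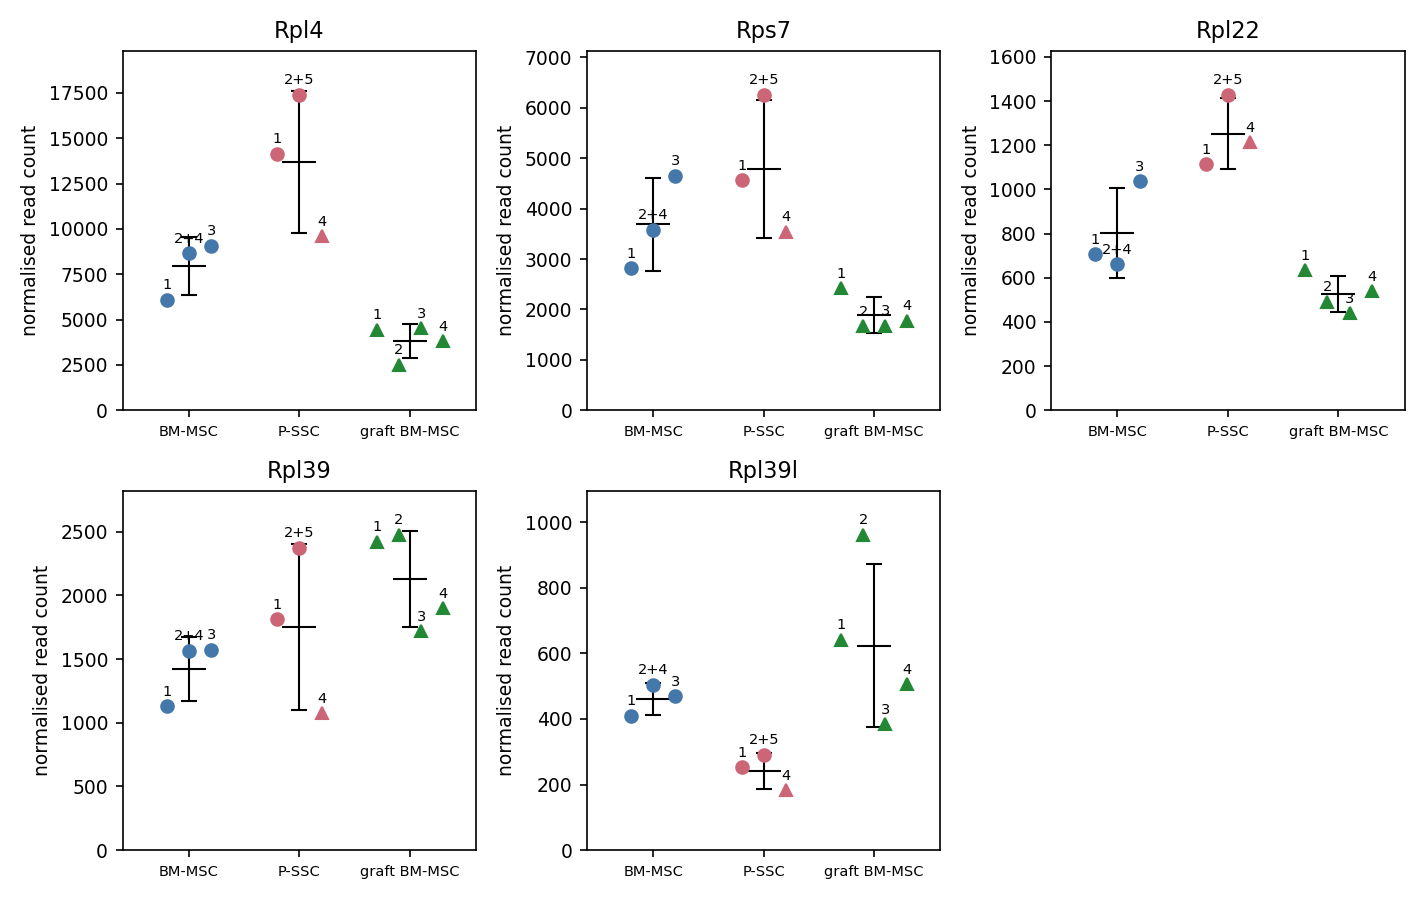
Normalised read counts of 5 members in each library of the 3 groups, with library numbers; triangles mark libraries with high GC-rich genes, circles the others, and the black bar is the mean with its SD. For Rpl4, Rps7 and Rpl22 the graft lies below all other libraries, and for Rpl39l P-SSCs (182 to 290) lie below all others.

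By role, the members behaved as follows in graft BM-MSCs against P-SSCs. In the stalk, which recruits translation factors, Rplp0 fell (11501 to 13631 in the graft, 24709, 36758 and 15818 in P-SSC 1, 2+5 and 4; -0.97 ± 0.28, limma adjusted p = 0.0361), and its partners Rplp1 (-0.65, adjusted p = 0.189) and Rplp2 (-0.75, adjusted p = 0.162) did not pass. In the 5S particle, which can bind Mdm2 and stabilise p53 when ribosome assembly fails, Rpl11 fell (-0.98 ± 0.29, limma adjusted p = 0.0411), while its partner Rpl5 differed by 0.02 ± 0.32 (adjusted p = 0.980). Rpl11 had 1358 to 2025 in the graft against 3268, 4783 and 2292 in P-SSC 1, 2+5 and 4, and Rpl5 2078 to 3623 against 3405, 4460 and 1892. The groups were apart for Rpl11 and overlapped for Rpl5, of which 92.5% of 75-letter stretches are shared with other genes and 61.0% of those of Rpl11. Over all genes, 12.0% were called lower and the median was -0.47. Of 7 genes that line the exit tunnel 2 were lower (Rpl4 and Rpl23a, 28.6%), and their median was -0.59. Of 18 measured genes that are mutated in Diamond-Blackfan anaemia, a failure of red cell production, 2 were lower (Rps7 and Rpl11). This share of 11.1% is close to that of all genes, and the median was -0.62. Rps20, which is ubiquitinated when ribosomes collide, was lower at -1.12, and Rps3, marked in the same way, was at -0.41.

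Several members with roles of their own did not pass in any comparison. Rps6, the target of S6 kinase, had 3179 to 4050 in graft BM-MSCs, 6413, 8614 and 4001 in P-SSC 1, 2+5 and 4, and 4004 to 5831 in BM-MSCs. Rpsa, also known as a laminin receptor, had 7405 to 8759 in the graft, 12268, 18467 and 6574 in the P-SSC libraries in the same order, and 8066 to 11358 in BM-MSCs. Rps27a, made as a fusion with ubiquitin, had 3300 to 4644 in the graft, 4507, 6057 and 2646 in P-SSCs, and 2603 to 3834 in BM-MSCs. Rps19, the gene most often mutated in Diamond-Blackfan anaemia, had 6608 to 8658 in the graft, 12977, 19540 and 7843 in P-SSCs, and 6612 to 10546 in BM-MSCs. P-SSC 4 was the lowest P-SSC library for each of these, and the graft overlapped P-SSCs, with differences of -0.72, -0.50, -0.15 and -0.79 (limma adjusted p = 0.0870, 0.275, 0.751 and 0.0940).

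Few members were called in graft BM-MSCs against BM-MSCs, where the GC set and the group cannot be told apart. Rpl4 was the single member called (-1.07 ± 0.28, limma adjusted p = 0.0444), or 1 of 77 where 7.67% of all genes were called and 5.06% were lower. Its adjusted p rose above 0.05 on leaving out any of the 4 graft or 3 BM-MSC libraries (0.0536 to 0.164) or P-SSC 1 (0.0701), and also with edgeR (0.0729), though not with DESeq2 (0.0127). The difference of Rpl4 itself shrank to -0.36 (adjusted p = 0.893) with the GC covariate and to -0.22 (adjusted p = 0.772) after the GC correction. For graft against BM-MSCs the covariate takes its offset only from P-SSC 4 against P-SSC 1 and 2+5. The covariate therefore cannot separate the GC set from the group here, and no conclusion is drawn from it. The median of the members was -0.29 against -0.53 over all genes, with 58 of 77 negative. It turned to 0.58 with the GC covariate, against -0.80 over all genes, and to 0.61 after the GC correction, against 0.24. Leaving out a P-SSC library does not alter the differences between graft and BM-MSCs, only the shared estimate of spread. Without P-SSC 4, 5 members were called, and without P-SSC 2+5 2. Neither count is read as a result about the members. The values of 11 members lay wholly below BM-MSCs (background 14.7%). Those of 2, Rpl30 and Rpl39, lay wholly above (background 10.3%).

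No member was called between P-SSCs and BM-MSCs by limma (0 of 77, background 9.15%; 2 at an unadjusted p under 0.05), nor by edgeR or DESeq2. The median was 0.32 against 0.00 over all genes, and 71 members were higher in P-SSCs. Without P-SSC 2+5 the median was -0.01 and without P-SSC 4 it was 0.62. In the latter fit 1 of 77 was called, which is not read as a result about the members. Rpl4 and Rpl22 lay wholly above BM-MSCs (background 15.1%) and Rpl39l wholly below (background 15.8%). Within the low GC set, P-SSC 1 and 2+5 lay above all BM-MSC libraries for 49 members and below for 1 (Rpl39l), with a median difference of 0.62. Over all genes 21.4% lay above and 23.6% below, with a median of -0.03.

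**Figure D4:**
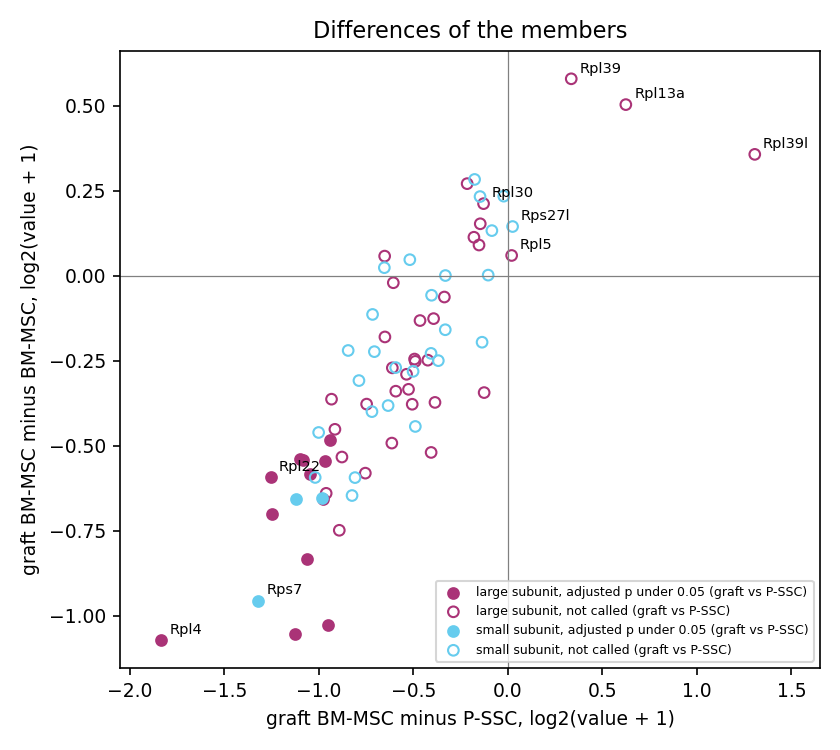
Difference of 76 of the 77 members on the log2(value + 1) scale between graft BM-MSCs and P-SSCs (x axis) and between graft BM-MSCs and BM-MSCs (y axis); purple is the large and light blue the small subunit, and filled points have a limma adjusted p under 0.05 in the comparison on the x axis. Both axes use the same graft libraries, Rpl4 is lowest on both (-1.84 and -1.07), and Rpl39l is farthest right (1.31). Most points lie left of 0 on the deposited scale, which a GC correction moved to a median of 0.30, against 0.29 over all genes.

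Because the members moved together, each was also set against the median of all members in the same library, which removes a shift that they share. In this fit, chosen after the data were seen, 4 members were called between graft BM-MSCs and P-SSCs (background 14.2%). Rpl4 (-1.22 ± 0.25, limma adjusted p = 0.00756) was lower against the other members. Rpl39l (1.93 ± 0.45, adjusted p = 0.0168) and Rpl39 (0.95 ± 0.25, adjusted p = 0.0266) were higher. Against BM-MSCs, 0 members were called for the graft (background 3.99%) and 0 for P-SSCs (background 8.16%). Rpl39 is outside the rule for named genes and was chosen after its values were seen.

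Rpl39 and Rpl39l encode near identical small proteins of the exit tunnel, and Rpl39l is best known from male germ cells. Rpl39l reads were 642, 961, 384 and 506 in graft BM-MSC 1 to 4, 409, 504 and 468 in BM-MSC 1, 2+4 and 3, and 252, 290 and 182 in P-SSC 1, 2+5 and 4. P-SSCs were lowest and did not overlap the other groups, which overlapped each other. The difference between graft BM-MSCs and P-SSCs was 1.31 ± 0.42 without passing (limma adjusted p = 0.0571). It was called with DESeq2 (adjusted p = 0.0127) and without graft BM-MSC 3 (1.51, adjusted p = 0.0308). It did not pass with the GC covariate (1.69) or after the GC correction (1.87, limma adjusted p = 0.0547). Nor did it pass with edgeR (1.45, adjusted p = 0.0794) or quantile normalization (1.34, limma adjusted p = 0.104). Rpl39 had 2423, 2476, 1720 and 1899 in the graft, 1131, 1566 and 1574 in BM-MSC 1, 2+4 and 3, and 1815, 2374 and 1076 in P-SSC 1, 2+5 and 4.

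A ratio within a library does not depend on its scaling, and the ratios of paralogs were chosen after the data were seen. There were 26.5, 38.8, 22.3 and 26.6 Rpl39l reads per 100 Rpl39 reads in graft BM-MSC 1 to 4, 36.2, 32.2 and 29.8 in BM-MSC 1, 2+4 and 3, and 13.9, 12.2 and 16.9 in P-SSC 1, 2+5 and 4. The P-SSC libraries of both GC sets were lowest. Of 5 paralog pairs compared between 3 pairs of groups (15 tests), no ratio passed after adjustment, and at 4 against 3 or 3 against 3 libraries the two-sided exact permutation test cannot go below 0.0571 or 0.1. The Rpl39l ratio reached these smallest values against P-SSCs for both the graft (difference 14.2, exact p = 0.0571, adjusted p = 0.286) and BM-MSCs (difference of P-SSCs less BM-MSCs -18.4, exact p = 0.1, adjusted p = 0.3).

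Rpl22 and its paralog Rpl22l1, which Rpl22 is known to repress, gave the other ratio with no overlap for the graft. Rpl22l1, no member by its name, had 777, 928, 694 and 577 reads in graft BM-MSC 1 to 4, 251, 369 and 370 in BM-MSC 1, 2+4 and 3, and 313, 568 and 215 in P-SSC 1, 2+5 and 4. Per 100 Rpl22 reads this was 122, 189, 158 and 107 in the graft, 35.5, 55.8 and 35.7 in BM-MSCs and 28.1, 39.8 and 17.7 in P-SSCs. Rpl22l1 reads exceeded Rpl22 reads in all 4 graft libraries and in no other library, P-SSC 4 of the same GC set included (exact permutation p = 0.0571 and adjusted p = 0.286 against either group). Rpl22l1 itself was not called in limma (adjusted p = 0.0978 against P-SSCs and 0.124 against BM-MSCs).

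Rps27l, a p53 target, stood at 93.8, 48.5, 44.9 and 96.7 reads per 100 reads of its paralog Rps27 in the graft, 67.6, 57.5 and 59.3 in BM-MSCs and 41.0, 34.7 and 50.8 in P-SSCs. The graft overlapped both other groups. The P-SSC and BM-MSC ratios were apart (exact permutation p = 0.1, adjusted p = 0.3). The ratios of Rpl7l1 to Rpl7 and of Rpl36al to Rpl36a overlapped between all groups.

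**Figure D5:**
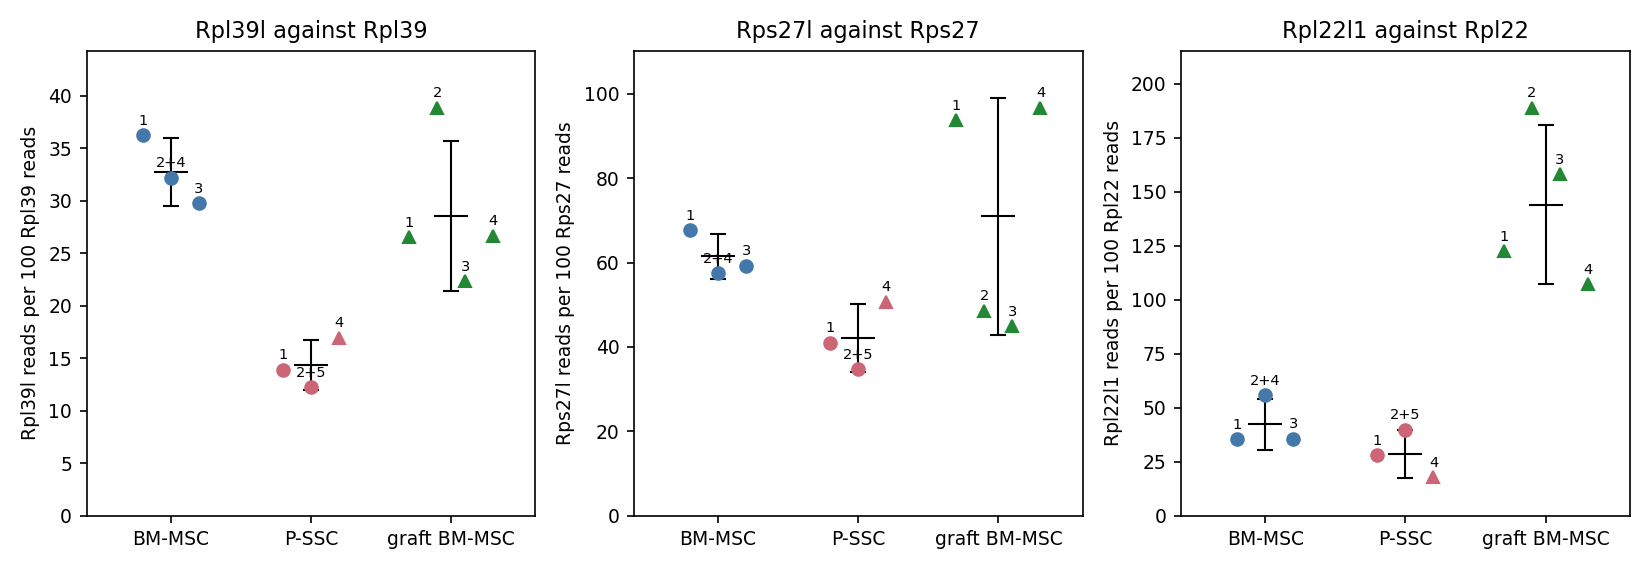
Reads of a paralog per 100 reads of its partner in each library of the 3 groups, with library numbers; triangles mark libraries with high GC-rich genes, circles the others, and the black bar is the mean with its SD. Rpl39l to Rpl39 is lowest in P-SSCs (12.2 to 16.9), and Rpl22l1 to Rpl22 is highest in the graft (107 to 189).

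Genes that work with the ribosome were taken from fixed lists. Of 17 other genes with a TOP messenger RNA, 4 were lower in graft BM-MSCs than in P-SSCs and 0 higher, where 12.0% and 6.08% of all genes were. Eef1a1, which brings transfer RNA to the ribosome, had 18091 to 19841 reads in the graft, 63834, 67668 and 41903 in P-SSC 1, 2+5 and 4, and 24691 to 28508 in BM-MSCs, with no overlap between groups (graft against P-SSCs -1.60 ± 0.18, limma adjusted p = 0.000176, and P-SSCs against BM-MSCs 1.07 ± 0.19, adjusted p = 0.00396). Eef2, which moves the ribosome along the message, was lower in the graft than in P-SSCs by -1.64 ± 0.24 (adjusted p = 0.000913) and lower than in BM-MSCs by -0.995 ± 0.240 (adjusted p = 0.0329). The other genes called in this list against P-SSCs were Eif4b and Pabpc1.

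Of 51 ribosome assembly factors, 6 were lower and 1 higher in the graft than in P-SSCs, with a median of -1.02 against -0.47 over all genes. A count of 6 of 51 is close to the 12.0% of all genes called lower. Nolc1, a nucleolar chaperone, had 224 to 377 in the graft and 828 to 1774 in the P-SSC and BM-MSC libraries (-1.77 ± 0.37 against P-SSCs, limma adjusted p = 0.00712). Imp3 was the one higher, with 602 to 2121 in the graft, but P-SSC 4 had 644 against 66.2 to 259 in the low GC libraries. Of 12 genes of RNA polymerase I, which transcribes ribosomal RNA, and its factors 3 were lower (Polr1a, Polr1b and Ubtf). Polr1b was at 0 in graft BM-MSC 1 to 3 and at 199 in graft BM-MSC 4. The other groups had 172 to 689. Of 13 eIF3 subunits 2 were lower (Eif3a and Eif3g). The share of 12.0% of all genes called lower is the background for these lists too.

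Of 13 genes that control ribosomal protein synthesis, Myc was lower in the graft than in P-SSCs (-2.15 ± 0.61, limma adjusted p = 0.0345) and higher in P-SSCs than in BM-MSCs (2.65 ± 0.65, adjusted p = 0.0288). Myc, a transcription factor that drives ribosome production, had 10921, 25004 and 4981 reads in P-SSC 1, 2+5 and 4, at most 4288 in the graft and at most 2276 in BM-MSCs. P-SSC 2+5 was the highest library for Myc, as for most members. Eif4ebp2, a repressor of translation that mTORC1 switches off, was higher in the graft (843 to 1978) than in P-SSCs (262, 215 and 274 in P-SSC 1, 2+5 and 4; 2.11 ± 0.42, adjusted p = 0.00543) and BM-MSCs (239 to 393; 1.84 ± 0.42, adjusted p = 0.0264). Mitochondrial ribosomal proteins, which serve another ribosome, gave 2 higher and 0 lower of 77 against P-SSCs (Mrps6 and Mrpl32), with a median of -0.19. Respiratory chain subunits gave 4 higher and 5 lower of 76, with a median of -0.05. The background against P-SSCs was 6.08% of all genes higher and 12.0% lower.

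Genes of other cells varied between the groups as well. The sum of 6 red cell genes was 2868 to 11139 ppm of the reads in BM-MSCs, 104 to 1884 in the graft and 9.60 to 74.98 in P-SSCs. The sum of 7 neutrophil genes was 1600 to 4651, 395 to 6861 and 0.672 to 5.25 in the same order, with graft BM-MSC 3 highest. The sum of 3 osteoblast genes was 10816 to 11407 in BM-MSCs, 3156 to 4215 in the graft and 222 to 771 in P-SSCs, with no overlap between groups, and that of 3 chondrocyte genes was 1735 to 3420, 0 to 247 and 6.78 to 67.4 in that order. The 4 measured muscle genes summed to 15.0 to 57.9 in P-SSCs and 0 to 16.8 in the other groups, and 7 genes of macrophages and other leukocytes to 1.37 to 102 in all libraries. The 2 measured endothelial genes were at 0 in all graft libraries and at most 4.50 ppm of the reads elsewhere. The part of these cells in the levels of the members was not tested, and in bulk samples a change in the cells present and a change in the RNA per cell cannot be told apart.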

How the data were processed

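RNA of small numbers of sorted cells was sequenced as poly-A libraries. The methods name GRCm38, STAR and DESeq2, while the processing notes of the submitters name GRCm39, cutadapt 1.15, STAR 2.5, featureCounts of Subread 1.4.6 and DESeq2 1.26.0. The steady-state libraries were re-analysed from another series. The deposited signal values are read counts that the authors divided by a size factor per library, and each library's values were whole multiples of its value of 1 read (100% whole). Libraries were grouped by their labels.

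Values were analysed as log2(value + 1), so differences of genes with low values are understated. limma 3.58.1 in R 4.3.3 fitted 1 mean per group over all 10 libraries (7 residual degrees of freedom, trend in the variance), with adjustment over 13644 genes of mean at least 10. The members, lists and tests were chosen with earlier results of these data known. Members with an adjusted p under 0.05 were named with values in every library, or, when there were more than 8, the 4 largest rises and falls, beside the 3 highest and lowest per kilobase and members with fixed roles; from each other list up to 4 genes were named. The values of 1 member are not reported here, although it is part of all counts. Replicates are separate samples in the labels, and no pair matched within counting noise. Binomial intervals cover counting error only.

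GENCODE M21 (GRCm38) gave the position, length and GC content of 15052 of 15078 genes through their Ensembl IDs, and RefSeq on GRCm38.p6 gave the promoter sequences. The 75-letter stretches were compared between transcripts of GENCODE M21. Alternatives were pseudocounts of 0.1 and 5, a minimum mean of 100 or none, centring on all genes or on the members, quantile normalization, a GC covariate, a loess correction over GC content with a span of 0.3, fits of only the groups compared, edgeR 4.0.16 and DESeq2 1.42.0 on the recovered reads, an adjusted p under 0.01, leaving out each library, and a replicate block. The methods were tested on simulated data.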

Additional observations from a re-analysis of the deposited data

Results flagged for a closer look

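In the graft BM-MSC group, the only group with 4 libraries, a value was marked when the gap of 1 library to its nearest neighbour took up more of the group's range than Dixon's 95% critical value allows. This held for 3 of 32 named values and 6 of 77 members, where chance marks about 1 in 20. Rpl32 in graft BM-MSC 4 (3577, with 4906 to 4966 in the other graft libraries) had a gap of 0.957 of the range. Rpl5 in graft BM-MSC 3 (2078, with 3438 to 3623 in the others) had 0.880. Rps7 in graft BM-MSC 1 (2424, with 1663 to 1779 in the others) had 0.848.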

How the results depend on the processing

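Shares of all genes called stand in brackets, but not for ranges over fits that left out 1 library. For graft BM-MSCs against P-SSCs, the count of 16 members called (18.1%) became 4 after centring on the median of all genes (17.2%). It was also 4 with quantile normalization (18.2%), in a fit of only the groups compared (12.4%) and after centring on the median of the members (2 higher and 2 lower, 14.2%). It was 7 with edgeR (11.2%), 25 with DESeq2 (24 lower, 21.3%) and 3 at an adjusted p under 0.01 (9.76%). With the GC set as a covariate (7.92%) or the loess GC correction (18.8%) it was 0. Leaving out 1 library gave 3 to 42, and the shares of all genes at these ends are given with the leave-out results above. The median of -0.61 became -0.17 with quantile normalization (all genes -0.018), 0.022 with the GC covariate (all genes -0.61) and 0.30 with the loess correction (all genes 0.29). It was 0.013 when centred on the members, and leaving out 1 library gave -0.90 to -0.33. Rpl29 (0.00086) and Rps9 (0.0045) turned from lower to level after the loess correction. For graft BM-MSCs against BM-MSCs, the count of 1 (7.67%) became 0 when centred on all genes (7.29%) or on the members (3.99%) and with quantile normalization (7.50%). It was also 0 with the GC covariate (0.293%), the loess correction (9.03%), edgeR (2.32%) and the stricter threshold (2.24%). In a fit of only the groups compared it was 5 (10.9%), with DESeq2 4 (14.3%), and without 1 library 0 to 5. The median of -0.29 became 0.58 with the GC covariate, set by the P-SSC libraries alone (all genes -0.80), and 0.61 with the loess correction (all genes 0.24). It was -0.14 with quantile normalization (all genes -0.165), -0.45 when centred on all genes (all genes -0.69), and -0.47 to -0.17 without 1 library. For P-SSCs against BM-MSCs, the count of 0 (9.15%) became 1 with the GC covariate (8.83%) and 0 to 1 without 1 library. The median of 0.32 became 0.062 with quantile normalization, 0.62 with the GC covariate and -0.01 to 0.62 without 1 library. The pseudocounts and filters on low values left these counts within 1.5 times. Without the 10 genes of highest mean, the share of reads in members rose from 1.97% to 2.22% in graft BM-MSCs, from 1.94% to 2.45% in BM-MSCs and from 2.27% to 2.79% in P-SSCs. Leaving out 1 library moved the group share between 1.88% and 2.04% in graft BM-MSCs, 1.74% and 2.14% in BM-MSCs and 1.93% and 2.59% in P-SSCs. Replicate numbers did not pair the libraries (correlations of deviations -0.0191 to 0.0295), and the replicate block, with 2 residual degrees of freedom, called 0 members in every comparison. The cause of these changes was not tested.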
